A study of Mus musculus with 16 samples.

Results

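The genes described here encode the mitochondrial respiratory chain: the probe sets whose annotated symbol begins with Nduf, Uqcr, Atp5 or one of the cytochrome oxidase prefixes Cox4, Cox5, Cox6, Cox7 and Cox8, together with Sdha, Sdhb, Sdhc and Sdhd. The rule found 93 genes, 1 probe set each, among 22206 tested probe sets, of which 19572 carry a gene symbol. By the complex in which the product works they divide into 44 genes of complex I, 4 of complex II, 8 of complex III, 20 of complex IV and 17 of complex V. The prefixes also take in 8 assembly factors of complex I, which are not part of the finished enzyme. Ndufa4, named as a complex I subunit but known to sit in cytochrome c oxidase, was counted with complex IV. Subunits encoded by mitochondrial DNA do not fall under the rule.

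All animals were S100a5-tauGFP mice, in which a green fluorescent reporter stands under the S100a5 gene. Its transcript depends on activity in olfactory sensory neurons, so that the GFP-positive (GFP+) fraction is meant to hold neurons that had recently been active. Males and females aged 7 to 12 weeks, 24 in all, were combined into 8 pools of 3. The mice spent 40 h in chambers under an air flow of 3.1 L/min. From 26 h on, 4 pools received 10 s pulses of the odorous thiol 1-pentanethiol every 20 min, and the other 4 received filtered air as vehicle. Dissociated olfactory mucosa of each pool was sorted into a GFP+ and a GFP-negative (GFP-) fraction and each fraction was hybridized to a Clariom S array, giving 4 groups of 4 arrays. The series' design text names bourgeonal, another odorant, and the name in the sample labels is used here. A value is a pool average over 3 animals and over all cells of a fraction, so fewer cells of a type and less RNA per cell cannot be told apart.

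The respiratory chain passes electrons from NADH, at complex I, and from succinate, at complex II, through complex III to oxygen at complex IV, and the proton gradient built on the way drives ATP synthesis at complex V. Olfactory sensory neurons spend ATP on ion pumping and on transduction in their cilia. Several subunits of complex IV exist as isoforms, 1 common in most tissues and another restricted to testis, heart and skeletal muscle, or to low oxygen.

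Most of the 93 genes gave strong signals on these arrays, and the isoforms restricted to other tissues gave weak ones. Probe sets differ in affinity, so the signals of different genes do not rank their transcripts. Ranked by mean log2 signal over the 16 arrays and cut into 4 equal classes, 71 of the 93 lay in the brightest class of all tested probe sets, 13 in the next, 7 in the one below and 2 in the dimmest. The signal exceeded the 95th percentile of the negative control entries of the same array on all 16 arrays for 62 genes, on none for 16 and on some for 15. All 11 common subunits of complex IV, all 6 measured core subunits of complex I and all 4 subunits of complex II were among the 62. None of the 8 restricted isoforms of complex IV was. Other genes were dim too, among them Atp5k, Uqcr11 and Ndufaf2, which exceeded that percentile on no array. Cox4i2, the isoform of subunit 4 known from lung and hypoxia, Cox8b, known from heart and muscle, and Ndufa4l2, induced by low oxygen, stayed below the median of the negative control entries on every array. The median over the 93 genes was 13.22 ± 0.06 in the GFP- and 13.33 ± 0.14 in the GFP+ fraction of vehicle pools, and 13.19 ± 0.14 and 13.36 ± 0.05 in those of odor pools (log2 signal, SD, n = 4 arrays each).

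The reporter sort was compared first, as GFP+ minus GFP- on the log2 scale, in the vehicle pools, in the odor pools and as the mean of both sorts over 8 pools. Differences are given with the SE of the model, and adjusted p-values are from limma with Benjamini-Hochberg adjustment over all 22206 probe sets, with 0.05 as the threshold. The respiratory chain as a whole differed little between the fractions. In the mean of both sorts the median of the 93 differences was 0.18, with quartiles of 0.08 and 0.26, beside a median of 0.14 over all tested probe sets. Within the brightest class the median was 0.15 for the 71 genes and 0.08 for all probe sets. There 17 of the 71 genes passed as higher, beside 1183 of all 5552 probe sets. Higher in GFP+ cells were 26 of the 93 genes, where 22.9% of all probe sets were higher, and lower was 1, Cox6b2, where 15.1% of all were lower (38% in either direction). The 8 GFP+ values lay wholly above the 8 GFP- values for 6 genes and wholly below for 1. Of all 22206 probe sets 783 lay wholly above and 1974 wholly below, 12.4% together.

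These counts, and the direction of the smaller differences, rest on the scaling of the arrays. The deposited values put the median of all differences at 0.14, at 0.47 with array medians set equal, and at -0.01 with the medians of the odorant receptor probe sets set equal. The median of the 93 genes moved along, from 0.18 to 0.52 and to 0.03. With array medians set equal 86 of the 93 passed as higher, beside 74.0% of all probe sets. With quantile normalization 40 passed as higher, beside 29.3% of all, and with receptor medians set equal 0 did, beside 4.7% of all. Without vehicle replicate 4 the count was 16 and without odor replicate 4 it was 17. Every call of a gene as higher in the mean of both sorts also passed with array medians set equal and with quantile normalization, and was lost with receptor medians set equal. Medians by complex ran from 0.15 to 0.22 on the deposited scale, from 0.49 to 0.56 with array medians set equal and from 0.00 to 0.07 with receptor medians set equal. Of the 26 genes, 7 did not exceed the 95th percentile of the negative controls on any array (Atp5k, Cox4i2, Cox7a1, Cox7b2, Cox8c, Ndufaf2 and Uqcr11), and negative controls were higher in GFP+ cells by a median of 0.39, whose part in these calls was not tested. Of the 26 calls 13 held whichever pool was left out; the other 13 are named with the pools they rest on beside their values.

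**Figure D1:**
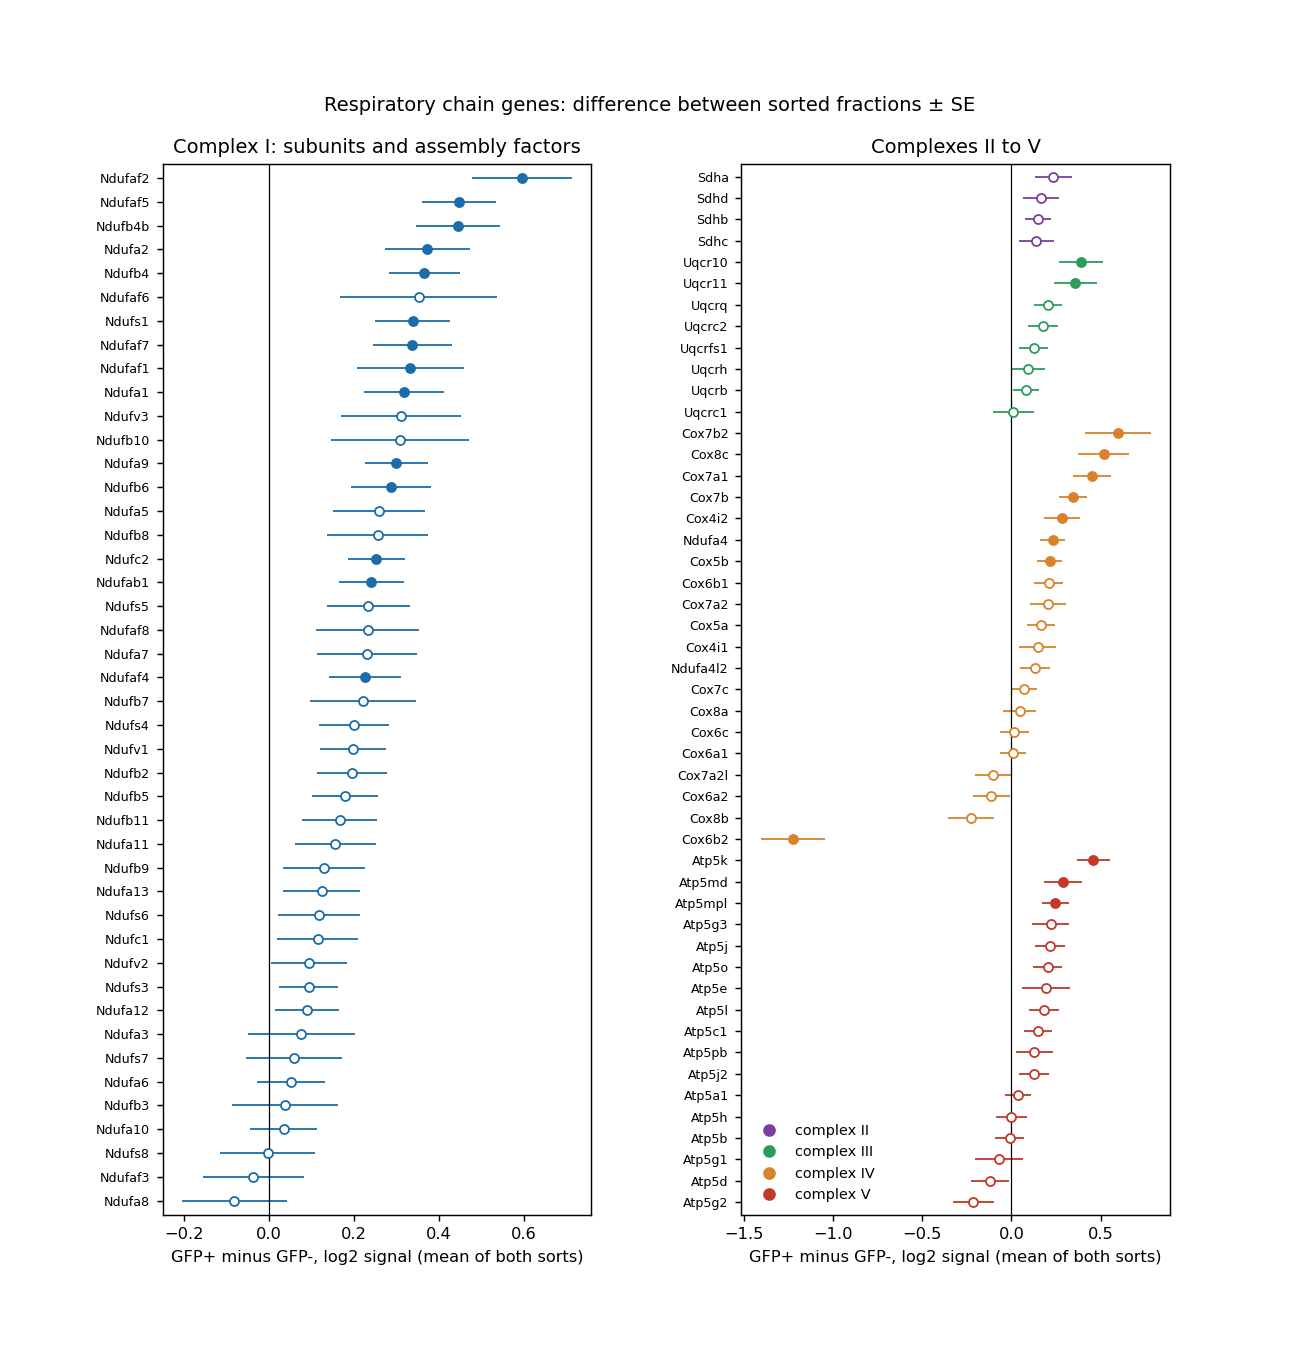
GFP+ minus GFP- difference (log2 signal, mean of both sorts, 8 arrays against 8) of each of the 93 genes with its SE, complex I on the left and complexes II to V on the right, on axes of different range. Filled points passed an adjusted p of 0.05: 26 lie to the right of 0, and Cox6b2 lies at -1.22. With receptor medians set equal none of the 26 passed.

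**Figure D2:**
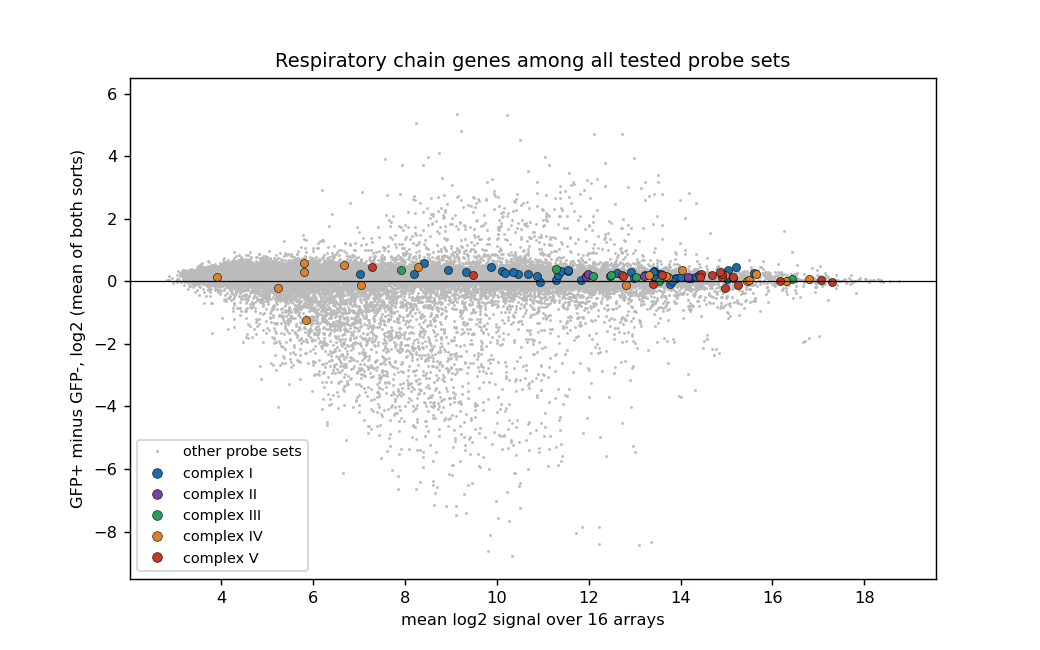
GFP+ minus GFP- difference (log2 signal, mean of both sorts) against mean log2 signal over 16 arrays for all 22206 tested probe sets (grey) and for the 93 respiratory chain genes (coloured by complex). The 71 genes of the brightest class form a narrow band between -0.21 and 0.44. All 93 lie between -1.22 and 0.60, both limits set by dimmer genes, while all probe sets reach from -8.79 to 5.36. Another array scaling moves the whole cloud up or down.

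The gene with the largest difference was Cox6b2, the testis isoform of a cytochrome c oxidase subunit at the interface of the enzyme dimer. In the vehicle pools 1 to 4 it read 7.36, 6.18, 6.17 and 6.72 in GFP- cells and 5.44, 5.27, 4.67 and 5.30 in GFP+ cells. In the odor pools the values were 5.98, 6.46, 6.26 and 6.44 in GFP- cells and 5.59, 4.91, 5.61 and 4.98 in GFP+ cells. Every GFP+ value lay below every GFP- value. The difference was -1.44 ± 0.25 in the vehicle pools (adjusted p = 0.000376), -1.01 ± 0.25 in the odor pools (adjusted p = 0.00765) and -1.22 ± 0.18 in the mean of both (limma, adjusted p = 3.46e-05). It passed with array medians, with quantiles and with receptor medians set equal. In the odor pools the call was lost without replicate 2 or without replicate 4 (adjusted p up to 0.0759). The signal was dim: 7 of the 8 GFP- arrays and none of the GFP+ arrays were above the median of their negative control entries, which limits what the size of the difference shows. Its common counterpart Cox6b1 differed by 0.21 ± 0.08 and did not pass (adjusted p = 0.0503).

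The other restricted isoforms of complex IV went the other way or did not pass. Cox7a1, the heart and muscle isoform of subunit 7A, read 8.16, 8.04, 7.88 and 7.92 in GFP- cells and 8.86, 8.10, 8.68 and 8.35 in GFP+ cells from vehicle pools. Values of the odor pools were 8.17, 8.33, 8.10 and 7.93 against 8.45, 8.43, 8.72 and 8.54. GFP+ was the higher fraction in all 8 pools, with 1 overlap between the vehicle groups at pool 2, and the difference was 0.45 ± 0.11 (mean of both sorts, adjusted p = 0.00369). Cox7b2 and Cox8c, testis isoforms of subunits 7B and 8, were higher by 0.60 ± 0.18 and 0.52 ± 0.14 (adjusted p = 0.0178 and 0.00913), each in 7 of 8 pools. Cox4i2 was higher by 0.28 ± 0.10 (adjusted p = 0.0356), under the median of the negative controls throughout. In the mean the call of Cox7b2 was lost without vehicle replicate 2 or 4 or odor replicate 2 (adjusted p up to 0.0697), and that of Cox4i2 without vehicle replicate 3 or 4 or odor replicate 1, 2 or 4 (adjusted p up to 0.128). In the odor pools alone Cox7b2 was higher by 0.80 ± 0.26 (adjusted p = 0.0352) and Cox4i2 by 0.43 ± 0.14 (adjusted p = 0.0385, and 0.0561 with the pool as a block). These odor calls were lost for Cox7b2 without replicate 2, 3 or 4 and for Cox4i2 without any replicate (adjusted p up to 0.204 and 0.234). Cox7b2 and Cox4i2 are removed by a filter on dim probe sets. The call of Cox8c was lost when both pools numbered 2 were left out. Negative control entries themselves were higher in GFP+ cells, by a median of 0.39, and what this contributed to these isoforms was not tested. Cox6a2 and Cox8b, heart and muscle isoforms, differed by -0.11 ± 0.10 and -0.23 ± 0.13 and Ndufa4l2 by 0.13 ± 0.08, and none passed (adjusted p = 0.396, 0.173 and 0.23).

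Among assembly factors of complex I, 5 of 8 were higher in the mean of both sorts, beside 22.9% of all probe sets, with a median of 0.34 beside 0.21 for the 30 accessory subunits and 0.09 for the 6 core subunits. These groups were not tested against each other, and 7 of the 8 assembly factors lay at or below the 95th percentile of the negative controls on at least 1 array. Ndufaf2, a chaperone that joins a late intermediate of complex I, read 8.24, 7.94, 8.41 and 7.97 in GFP- cells and 8.61, 9.31, 8.80 and 8.84 in GFP+ cells from vehicle pools. In the odor pools it read 7.92, 8.16, 7.92 and 8.28 in GFP- and 8.34, 8.61, 8.31 and 8.79 in GFP+ cells. The fractions did not overlap within either sort, and the highest of the 16 values was that of vehicle pool 2. The difference was 0.75 ± 0.17 in the vehicle pools (adjusted p = 0.00313), 0.44 ± 0.17 in the odor pools, not past it (adjusted p = 0.0672), and 0.60 ± 0.12 in the mean (1.51-fold, limma, adjusted p = 0.000796). The call in the vehicle pools was lost when both pools numbered 2 were left out.

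Ndufaf5, a methyltransferase-like protein that hydroxylates a core subunit during assembly, read 9.68, 9.81, 9.58 and 9.57 in GFP- against 10.16, 10.20, 10.13 and 10.13 in GFP+ cells from vehicle pools. In the odor pools it read 9.67, 9.73, 9.51 and 9.55 against 9.92, 9.74, 10.06 and 10.33. The vehicle fractions were well apart, whereas GFP+ of odor pool 2 was barely above the highest GFP- value. The difference was 0.50 ± 0.12 and 0.40 ± 0.12 (adjusted p = 0.00728 and 0.0269, the latter 0.0607 once the pool was fitted as a block) and 0.45 ± 0.09 in the mean (adjusted p = 0.000684). The odor call was lost without replicate 1, 3 or 4 (adjusted p up to 0.163). Ndufaf1, which chaperones an early membrane intermediate, was higher in the vehicle pools by 0.53 ± 0.18 (adjusted p = 0.044, and 0.0586 with the block) and differed by 0.14 ± 0.18 in the odor pools (adjusted p = 0.599). Its mean difference of 0.33 ± 0.13 passed without the block (adjusted p = 0.0461) and not with it (adjusted p = 0.0576). It was lost without vehicle replicate 1, 3 or 4 or odor replicate 1, 2 or 4 (adjusted p up to 0.167), and the vehicle call without replicate 1, 3 or 4 (adjusted p up to 0.222). Ndufaf7, another methyltransferase, was higher by 0.34 ± 0.09 (adjusted p = 0.00904) and Ndufaf4 by 0.23 ± 0.09 (adjusted p = 0.0452, and 0.0656 with the block), a call that was kept without vehicle replicate 1 and lost without any other pool (adjusted p up to 0.115). Ndufaf3 stood at -0.04 ± 0.12 (adjusted p = 0.821), and Ndufaf6 and Ndufaf8 did not pass (0.35 ± 0.18 and 0.23 ± 0.12, adjusted p = 0.139 and 0.14).

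Of the 6 core subunits of complex I, which carry the flavin and the iron-sulfur clusters, 1 passed. It was higher, a share of 16.7% beside the 22.9% of all probe sets that were higher. Ndufs1, the largest of them, read 13.27, 13.29, 13.07 and 13.17 in GFP- and 13.45, 13.18, 13.66 and 13.67 in GFP+ cells from vehicle pools. In odor pools it read 13.20, 13.33, 13.40 and 13.30 against 13.61, 13.66, 13.60 and 13.90. The odor fractions did not overlap, and vehicle pool 2 ran against the others. Its difference was 0.34 ± 0.09 in the mean (adjusted p = 0.00704), 0.39 ± 0.13 in the odor pools (adjusted p = 0.0353, and 0.0743 with the block) and 0.29 ± 0.13 in the vehicle pools (adjusted p = 0.116). The odor call was lost without any 1 of the 4 odor replicates (adjusted p up to 0.156), and the call in the mean was not. Ndufv1, which binds NADH, stood at 0.20 ± 0.08 just outside the threshold (adjusted p = 0.0568), and Ndufs8, Ndufs7, Ndufs3 and Ndufv2 differed by -0.00 to 0.09.

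Accessory subunits of complex I, which surround the core and stabilize it, had 8 of 30 higher and none lower, a share of 26.7% near the 22.9% of all probe sets. Ndufb4, a subunit of the membrane arm, read 14.93, 14.87, 14.96 and 14.83 in GFP- against 15.38, 15.20, 15.24 and 15.16 in GFP+ cells from vehicle pools. Odor pools read 14.99, 14.97, 14.50 and 14.77 against 15.19, 15.11, 15.32 and 15.14. All 8 GFP+ values were above all 8 GFP- values, and the lowest of the 16 was GFP- of odor pool 3. Its difference was 0.35 ± 0.12 and 0.38 ± 0.12 in the vehicle and odor pools (adjusted p = 0.046 and 0.0285, and 0.0898 and 0.0629 with the block) and 0.37 ± 0.08 in the mean (adjusted p = 0.00274). The mean held without any 1 pool, while the vehicle call was lost without any vehicle replicate (adjusted p up to 0.155) and the odor call without odor replicate 3 or 4 (adjusted p up to 0.207). Ndufb4b, a near-identical copy of Ndufb4, followed it, by 0.44 ± 0.10 in the mean (adjusted p = 0.00194) and 0.53 ± 0.14 in the vehicle pools (adjusted p = 0.0103). Signal may be shared between the copies, so that both are uncertain as separate genes.

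Ndufa9, a subunit at the joint of the membrane and matrix arms, read 13.20, 13.42, 13.21 and 13.10 in GFP- and 13.66, 13.51, 13.63 and 13.50 in GFP+ cells from vehicle pools. The odor pools gave 13.31, 13.35, 13.14 and 13.21 against 13.52, 13.49, 13.50 and 13.53. Again the fractions did not overlap over the 16 arrays, and GFP- of vehicle pool 2 came closest to the GFP+ values. The difference was 0.30 ± 0.07 in the mean (adjusted p = 0.0042), 0.34 ± 0.10 in the vehicle pools (adjusted p = 0.0257, and 0.0624 with the block) and 0.26 ± 0.10 in the odor pools (adjusted p = 0.0828). Ndufc2, a membrane arm subunit, was likewise without overlap, with GFP- values of 15.37 to 15.57 and GFP+ values of 15.61 to 15.86, and differed by 0.25 ± 0.07 (adjusted p = 0.00791), the vehicle sort alone giving 0.29 ± 0.10 (adjusted p = 0.0402, and 0.0826 with the block). The vehicle calls were lost for Ndufa9 without replicate 1, 3 or 4 and for Ndufc2 without any replicate (adjusted p up to 0.123 and 0.147). Ndufa2, a small matrix arm subunit, was higher in the odor pools by 0.47 ± 0.14 (adjusted p = 0.0234) and in the mean by 0.37 ± 0.10 (adjusted p = 0.00826), the odor call being lost without replicate 2 or 3 (adjusted p up to 0.172). Ndufa1, Ndufb6 and Ndufab1, the last also the acyl carrier protein of mitochondria, were higher in the mean by 0.32 ± 0.10, 0.29 ± 0.09 and 0.24 ± 0.08 (adjusted p = 0.0153, 0.0251 and 0.0201). These were lost for Ndufa1 without odor or vehicle replicate 3 (adjusted p up to 0.0569), for Ndufb6 without odor replicate 1, 3 or 4 or vehicle replicate 1 (up to 0.072) and for Ndufab1 without odor replicate 1 or 4 or vehicle replicate 4 (up to 0.0592). Ndufa1 also passed in the odor pools (0.41 ± 0.13, adjusted p = 0.0368, and 0.0546 with the block), except without replicate 1, 3 or 4. Ndufa8 was the lowest of the accessory subunits, at -0.08 ± 0.12, and did not pass (adjusted p = 0.62).

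None of the 4 subunits of complex II passed, in a complex that also serves the tricarboxylic acid cycle. Of all probe sets 38% passed in either direction, and 4 genes are few to set beside that share. Sdha, the flavoprotein that oxidizes succinate, differed by 0.24 ± 0.10 (adjusted p = 0.0777), Sdhd and Sdhc, its membrane anchors, by 0.17 ± 0.10 and 0.14 ± 0.10, and the iron-sulfur subunit Sdhb by 0.15 ± 0.07. All 4 lay above 0, as did 15181 of all 22206 probe sets, and between 5 and 7 of the 8 pools had the higher value in GFP+ cells. The median of the 4, 0.16, fell to 0.01 with receptor medians set equal.

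In complex III, 2 of 8 subunits were higher (25%, beside 22.9% of all probe sets), and both are small subunits without a redox centre. Uqcr10 was higher by 0.39 ± 0.13 and Uqcr11 by 0.36 ± 0.12 in the mean (adjusted p = 0.022 and 0.0282), each in 7 of 8 pools, and Uqcr11 also in the odor pools by 0.49 ± 0.17 (adjusted p = 0.0475). Uqcr11 read 7.83, 7.92, 7.35 and 7.45 in GFP- and 8.26, 8.26, 7.68 and 8.31 in GFP+ cells of the odor pools, so GFP+ of pool 3 fell among the GFP- values. The call of Uqcr11 in the odor pools was lost without replicate 1, 2 or 4, that in the mean without odor replicate 4 or vehicle replicate 1, 3 or 4 (adjusted p up to 0.0984), and that of Uqcr10 without odor replicate 3 or vehicle replicate 1 (adjusted p up to 0.0768). Uqcr11 stayed below the 95th percentile of the negative controls on every array, and its difference was no larger than the 0.39 by which those controls were higher in GFP+ cells. Uqcrfs1, the Rieske iron-sulfur protein, and Uqcrc1, a core protein, differed by 0.13 ± 0.08 and 0.01 ± 0.12 and did not pass (adjusted p = 0.228 and 0.943).

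In complex IV, 3 of the 11 common subunits were higher (27.3%, beside 22.9% of all probe sets). All 11 differences lay above 0 on the deposited scale, where 15181 of all 22206 probe sets did. Some of the 11 were under 0 with receptor medians set equal. Cox7b read 13.83, 13.93, 13.97 and 13.80 in GFP- against 14.22, 14.31, 14.26 and 14.09 in GFP+ cells from vehicle pools. The odor pools gave 13.89, 13.97, 13.66 and 13.83 against 14.11, 14.06, 14.38 and 14.22. No GFP+ value fell to the highest GFP- value of 13.97. The difference was 0.34 ± 0.11 and 0.36 ± 0.11 in the vehicle and odor pools (adjusted p = 0.0395 and 0.0268, and 0.0877 and 0.0656 with the block) and 0.35 ± 0.08 in the mean (adjusted p = 0.00233). The mean held without any 1 pool, while the vehicle call was lost without any vehicle replicate and the odor call without odor replicate 1, 3 or 4 (adjusted p up to 0.132 and 0.199). Cox5b, which binds zinc, did not overlap either and was higher by 0.21 ± 0.07 (adjusted p = 0.0223, and 0.0516 with the block), a call lost without odor replicate 3 or 4 or vehicle replicate 1 or 4 (adjusted p up to 0.0644). Ndufa4 was higher in the vehicle pools by 0.31 ± 0.10 (adjusted p = 0.0385, and 0.0729 with the block) and in the mean by 0.23 ± 0.07 (adjusted p = 0.0183). The vehicle call was lost without any vehicle replicate (adjusted p up to 0.135) and the mean without odor replicate 3 or 4 or vehicle replicate 4 (adjusted p up to 0.0526). Cox4i1 and Cox5a, through which ATP and a thyroid hormone metabolite regulate the enzyme, differed by 0.15 ± 0.10 and 0.16 ± 0.08 and did not pass, and Cox6a1 and Cox8a stayed at 0.01 ± 0.07 and 0.05 ± 0.09. Cox7a2l, a factor that links complex III to complex IV in supercomplexes, differed by -0.11 ± 0.10 (adjusted p = 0.424).

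In complex V the catalytic head and the membrane part had different counts, a contrast that was not tested: 0 of 5 subunits of the F1 head passed and 3 of 12 of the membrane part and stalk did, the latter share of 25% being near the 22.9% of all probe sets that were higher. Atp5a1 and Atp5b, the alpha and beta subunits that hold the nucleotide sites, differed by 0.04 ± 0.07 and -0.01 ± 0.08 (adjusted p = 0.715 and 0.935). Atp5k, the e subunit of the membrane part, which takes part in dimers of the enzyme, read 7.10, 7.18, 7.45 and 6.88 in GFP- against 7.67, 7.44, 7.38 and 7.34 in GFP+ cells from vehicle pools. The odor pools gave 7.04, 7.01, 6.86 and 6.86 against 7.76, 7.48, 7.42 and 7.57. The fractions overlapped in the vehicle pools, where pool 3 ran the other way, and were apart in the odor pools. Atp5k was higher in the odor pools by 0.61 ± 0.13 (1.53-fold, adjusted p = 0.0023), a call that also held with receptor medians set equal (0.55, adjusted p = 0.0454), and in the mean by 0.46 ± 0.09 (adjusted p = 0.00094). Its signal was dim, above the median of the negative controls on all 16 arrays and above their 95th percentile on none, and those controls were themselves higher in GFP+ cells of odor pools by 0.32. The vehicle difference was 0.31 ± 0.13 (adjusted p = 0.112), and the test of odor against vehicle for this difference did not pass (0.31 ± 0.19, limma, adjusted p = 0.999). Atp5md and Atp5mpl, further small membrane subunits, passed in the mean by 0.29 ± 0.11 and 0.24 ± 0.08 (adjusted p = 0.0437 and 0.018), except without odor replicate 2, 3 or 4 or vehicle replicate 1 or 4 for Atp5md and without odor replicate 3 or vehicle replicate 4 for Atp5mpl (adjusted p up to 0.127 and 0.0521). The 3 genes for the c subunit of the rotor, which encode the same mature protein, had differences of either sign: Atp5g3 stood at 0.22 ± 0.10, Atp5g1 at -0.07 ± 0.13 and Atp5g2 at -0.21 ± 0.11, and none passed (adjusted p = 0.099, 0.699 and 0.143). Atp5g2 was lower in 7 of 8 pools; with receptor medians set equal it passed as lower, at -0.36 (adjusted p = 0.0161), and with array medians set equal its sign turned, to 0.12.

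**Figure D3:**
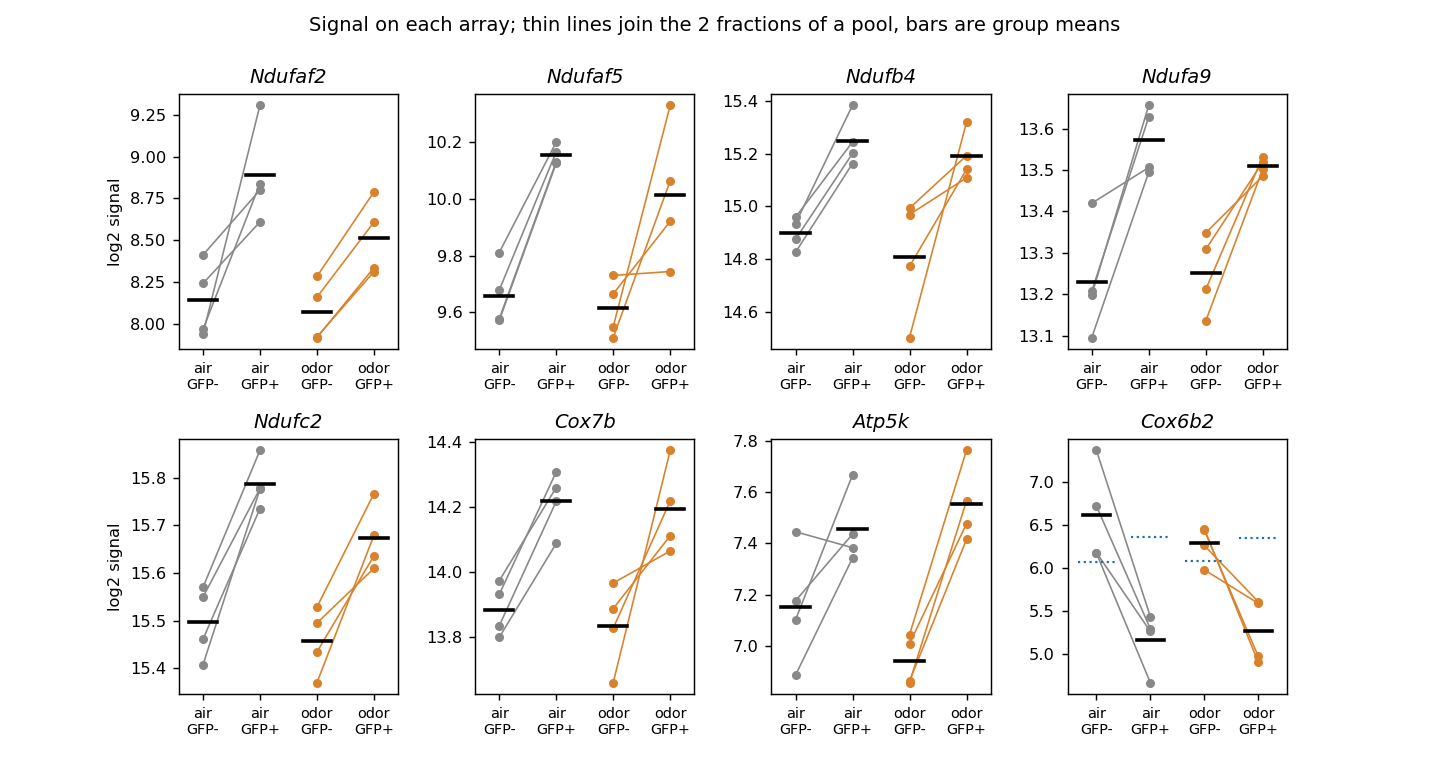
Log2 signal of 8 respiratory chain genes on each of the 16 arrays: GFP- and GFP+ fractions of the vehicle (air, grey) and odor (orange) pools, thin lines joining the fractions of a pool and black bars giving group means, each panel with its own axis that does not start at 0. Dotted lines in the Cox6b2 panel are medians of the negative control entries over the 4 arrays of a group. Cox6b2 runs downward in all 8 pools and Ndufaf2, Ndufaf5, Ndufb4, Ndufa9, Ndufc2 and Cox7b upward in all 8.

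Counted within each sort, 10 of the 93 were higher and 1 lower in the vehicle pools, where 9.34% and 11.8% of all probe sets were (21.1% together), and 10 higher and 1 lower in the odor pools, where 11.3% and 11.9% were (23.3% together). These counts of genes higher stand near the shares of all probe sets. The medians were 0.17 and 0.16, beside 0.11 and 0.13 over all probe sets. Fitting the pool as a block left 4 genes higher in each sort. With array medians set equal 80 and 81 passed as higher, with quantile normalization 17 and 19, and with receptor medians set equal 0 and 1, the last being Atp5k, while the vehicle median turned to -0.06 and the odor median was 0.09. Leaving out 1 vehicle pool at a time left 3 to 9 higher in that sort (4, 3 and 3 without replicates 1, 3 and 4), and leaving out 1 odor pool left 2 to 5 (5, 5, 2 and 2 without replicates 1 to 4). Ndufaf5, Ndufb4 and Cox7b were higher and Cox6b2 lower in both sorts, which share no array but share the estimate of the spread. Fitted to the compared groups alone, Ndufb4 and Cox7b lost the call in both sorts and Ndufaf5 in the odor pools. Cox6b2 kept both calls in those fits. Of the 10 calls of a higher gene in each sort, 3 in the vehicle pools (Ndufaf5, Ndufaf2 and Ndufb4b) and 1 in the odor pools (Atp5k) held whichever of its 4 pools was left out.

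The pools were not alike. The median difference over the 93 genes was 0.24, 0.01, 0.12 and 0.20 in vehicle pools 1 to 4 and 0.08, -0.01, 0.31 and 0.24 in odor pools 1 to 4. Over all probe sets it was 0.10, 0.07, 0.08 and 0.12 in the vehicle pools and 0.08, 0.11, 0.09 and 0.13 in the odor pools. Over the brightest class it was 0.12, -0.01, 0.14 and 0.12, and 0.03, 0.04, -0.00 and 0.14. Of the 93 genes, those higher in GFP+ numbered 83, 48, 70 and 83 in the vehicle pools and 64, 46, 86 and 87 in the odor pools, so that the pools numbered 2 were split nearly evenly in both. By gene, 18 of the 93 were higher in GFP+ cells in all 8 pools, and 1, Cox6b2, was lower in all 8. The share of all probe sets with 1 direction in all 8 pools is not given here, so these counts stand without a background. In vehicle pool 2 the negative control entries were brighter in GFP+ than in GFP- cells by a median of 1.15, against 0.19 to 0.48 in the other 7 pools, and its GFP+ array had a negative control median of 7.28 beside 6.22 to 6.38 on the other vehicle GFP+ arrays. Without that array 36 of the 93 genes were higher in the mean of both sorts, and without both pools numbered 2 there were 29, both settings chosen after the data were seen.

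**Figure D4:**
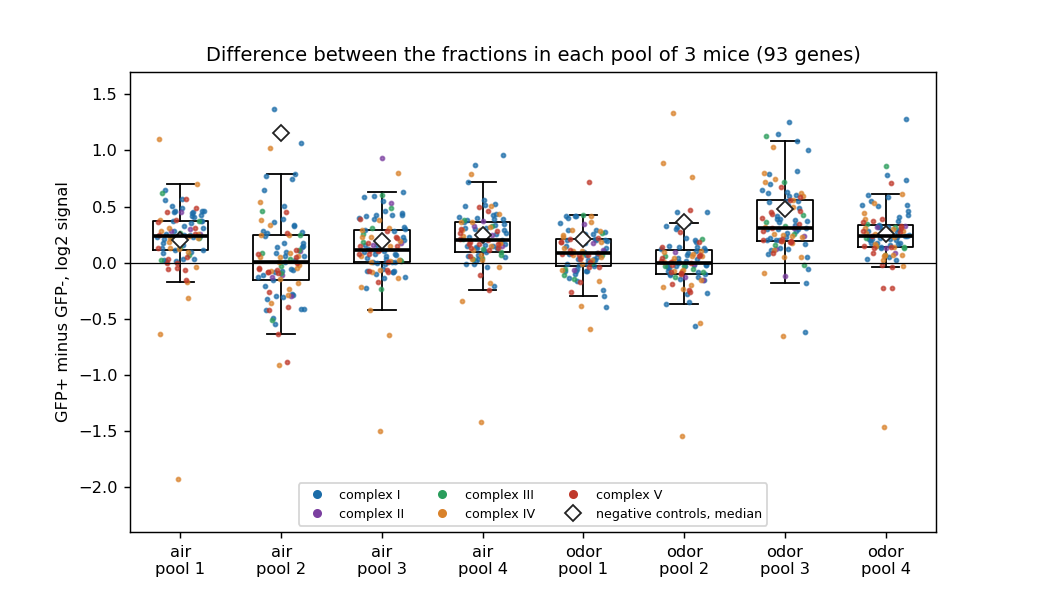
GFP+ minus GFP- difference (log2 signal) of each of the 93 genes in each of the 8 pools, coloured by complex; boxes give the median and quartiles, whiskers reach the last point within 1.5 box heights, and open diamonds give the median difference of the negative control entries. The medians of both pools numbered 2 lie at 0.01 and -0.01 and those of the other 6 at 0.08 to 0.31, heights that shift with the array scaling.

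Markers of most other cell types were lower in GFP+ cells. All 8 neutrophil markers were lower in GFP+ cells, with a log2 of their summed signal of 18.87 to 19.24 and 18.37 to 19.23 in GFP- cells of vehicle and odor pools and 10.09 to 11.35 and 10.23 to 12.13 in GFP+ cells. Also lower were all 4 measured markers of globose basal and cycling cells, all 4 of B and plasma cells, 5 of 5 and 4 of 4 of ionocyte-like and tuft-like microvillar cells, 3 of 5 of macrophages and the 1 erythroid marker measured, and the summed signals of these lists did not overlap between the fractions in either sort. Lists that overlapped in summed signal were those of immature neurons, with 4 of 6 markers lower, sustentacular cells, with 3 of 5 lower and the other 2 above 0, and glands, with 1 of 3 lower. The sustentacular sums were 17.85 to 18.03 in GFP- and 17.87 to 18.10 in GFP+ cells from vehicle pools, and those of immature neurons 16.82 to 17.25 and 16.71 to 17.03. Of 10 markers of mature olfactory neurons 2 were higher and none lower, and Omp, their defining marker, differed by 0.04 ± 0.07 (adjusted p = 0.644). S100a5, the reporter's gene, was higher by 0.93 ± 0.09 (limma, adjusted p = 1.3e-07). What these other cells contributed to the differences of the respiratory chain genes was not tested.

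Other genes of the pathway were read from fixed lists in the mean of both sorts. Among 11 regulators of mitochondrial biogenesis 2 were higher, a share of 18.2% beside 22.9% of all probe sets. Ppargc1a, a coactivator that drives respiratory chain genes, was higher by 0.55 ± 0.11 (adjusted p = 0.000813) and its relative Ppargc1b by 0.33 ± 0.10 (adjusted p = 0.0129), each in all 8 pools. Ppargc1a read 13.91, 13.48, 13.54 and 13.57 in GFP- against 14.31, 13.83, 14.11 and 13.96 in GFP+ cells from vehicle pools. The odor pools gave 13.87, 13.42, 13.48 and 13.35 against 14.46, 14.25, 14.19 and 13.93. It passed in all 18 alternatives, with receptor medians set equal at 0.40, and Ppargc1b in 17. Assembly factors outside the prefixes had 9 of 26 higher and 1 lower, beside 22.9% and 15.1% of all probe sets, among them Sdhaf4, for complex II (0.48 ± 0.10), and Cox10, for the heme of complex IV (0.48 ± 0.12), both higher, and Bcs1l, which inserts the Rieske protein (-0.44 ± 0.15, adjusted p = 0.03), lower. Sdhaf4 and Bcs1l were dim, above the median of the negative controls on 11 and 15 of the 16 arrays. The call of Bcs1l was lost with array medians set equal, with quantile normalization, and without odor replicate 1 or 3 or vehicle replicate 2 or 4 (adjusted p up to 0.532). Of 76 mitochondrial ribosomal proteins 17 were higher and none lower, with Mrpl40 (0.49 ± 0.09), Mrpl41 (0.40 ± 0.10) and Mrps14 (0.39 ± 0.12) the largest, a share of 22.4% beside the 22.9% of all probe sets. The call of Mrps14 was lost without odor replicate 4. With receptor medians set equal the calls of Cox10, Mrpl40, Mrpl41 and Mrps14 as higher were all lost (adjusted p up to 0.392).

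Genes of fuel supply went both ways in the mean of both sorts, where 22.9% of all probe sets were higher and 15.1% lower. Of 13 genes of the tricarboxylic acid cycle outside complex II, Idh3a, a subunit of the NAD-dependent isocitrate dehydrogenase, was higher (0.34 ± 0.08, adjusted p = 0.00289), as was Dld (0.25 ± 0.09), while Idh2, the NADP-dependent enzyme, was lower (-0.83 ± 0.12, adjusted p = 2.97e-05). Of 15 glycolytic genes 2 were higher and 4 lower. Ldha, the lactate dehydrogenase subunit that favours lactate, was lower by -3.17 ± 0.17 (adjusted p = 1.3e-10), Hk2, an inducible hexokinase, by -1.22 ± 0.19 (adjusted p = 7.1e-05) and Pgk1 by -0.66 ± 0.13 (adjusted p = 0.000955), and all 3 passed in all 18 alternatives. Hk2 exceeded the median of the negative controls on 10 of the 16 arrays and on none of the vehicle GFP+ arrays, so the size of its difference is uncertain. Of 5 genes for pyruvate entry Pdhb passed (0.25 ± 0.09, adjusted p = 0.0435). The calls of Dld and Pdhb were lost without odor replicate 2 or 4 or vehicle replicate 2, 3 or 4, that of Dld also without odor replicate 3. With receptor medians set equal the calls of Idh3a and Dld were lost (adjusted p = 0.203 and 0.683). None of 3 genes for cytochrome c and c1 and none of 3 ADP and phosphate carriers passed. Idh2, Ldha, Hk2 and Pgk1 fell beside the markers of other cell types given above, whose part in them was not tested.

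Promoter sequence is shown because known regulators of the respiratory chain read short motifs close to the start site. Of the 93 genes 77 had an entry in the RefSeq promoter table (GRCm38.p6), each covering 250 bases before to 50 bases after the start. Both strands were searched for the palindrome-like binding motif of NRF1, the core motif of ETS factors such as GABP (CCGGAAG) and that of YY1 (AAGATGGC), none of which contains another. NRF1 motifs were found in 24.7% of the 77 and in 7.63% of all array genes with an entry, ETS motifs in 24.7% and 13.2%, and YY1 motifs in 14.3% and 3.64%. At least 1 of the 3 was present in 54.5% of the 77 and 21.7% of all. Of the genes higher in GFP+ cells in the mean of both sorts, 21 had an entry and 42.9% of them a motif, beside 60.0% of the 55 that did not pass. The 100 bases before the start follow for 4 genes that were higher in GFP+ cells and have a motif there, for Sdha, which did not pass and has 3 NRF1 motifs, and for Cox6b2, which was lower and has none of the 3 in these bases, with motif matches in capitals. A match is a description of the letters and says nothing of binding in these cells.
Atp5k (chr5:108434400-108434499, minus strand): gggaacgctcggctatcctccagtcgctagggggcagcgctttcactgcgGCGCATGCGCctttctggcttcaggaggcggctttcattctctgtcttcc
Ndufb4 (chr16:37654369-37654468, minus strand): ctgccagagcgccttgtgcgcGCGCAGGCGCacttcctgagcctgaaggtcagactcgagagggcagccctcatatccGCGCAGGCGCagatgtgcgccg
Ndufaf1 (chr2:119662835-119662934, minus strand): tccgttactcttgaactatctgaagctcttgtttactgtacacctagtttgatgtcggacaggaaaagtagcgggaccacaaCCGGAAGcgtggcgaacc
Uqcr11 (chr10:80406822-80406921, minus strand): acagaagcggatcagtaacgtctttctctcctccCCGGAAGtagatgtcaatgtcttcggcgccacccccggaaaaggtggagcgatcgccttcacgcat
Sdha (chr13:74350241-74350340, minus strand): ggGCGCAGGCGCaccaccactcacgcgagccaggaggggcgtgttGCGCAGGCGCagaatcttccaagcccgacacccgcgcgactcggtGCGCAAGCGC
Cox6b2 (chr7:4753095-4753194, minus strand): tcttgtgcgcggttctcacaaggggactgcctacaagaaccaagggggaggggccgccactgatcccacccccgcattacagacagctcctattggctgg

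The odor itself was then compared with vehicle within each fraction. No respiratory chain gene passed in GFP+ cells, where 0.0766% of all probe sets did, or in GFP- cells, where 0.0495% did, and none had a GFP+ minus GFP- difference that changed with the odor, where 0.063% of all did. At an unadjusted p under 0.05 there were 3 of the 93 genes in GFP+ cells, beside 1587 of all 22206 probe sets. In GFP- cells and for the change of the sort with odor there were 0, beside 580 and 1033 of all. The counts of the 93 past the adjusted threshold stayed at 0 under every alternative run. The median odor effect over the 93 genes was -0.00 in GFP+ and -0.02 in GFP- cells, with 45 and 40 genes above 0. Unadjusted 95% intervals lay within 1 log2 unit either way for 92 genes in GFP+ and all 93 in GFP- cells, and within 0.5 for 76 and 75, so changes of 2-fold or more with odor lay outside these intervals for all but 1 gene in GFP+ cells, Ndufaf6, whose interval reached -1.02.

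In GFP+ cells the 4 smallest p-values belonged to complex I. Ndufc1, a small membrane arm subunit, read 14.31, 14.75, 14.32 and 14.48 in GFP+ cells from vehicle pools and 14.09, 14.00, 14.07 and 14.23 in those of the odor pools. The 2 groups did not overlap, and the difference of -0.36 ± 0.13 did not pass (adjusted p = 0.593). Ndufaf8 and Ndufaf2 differed by -0.40 ± 0.17 and -0.38 ± 0.17 and Ndufaf6 by -0.47 ± 0.26, all in GFP+ cells, none of them passing (adjusted p = 0.659, 0.666 and 0.751), and Cox6a2 by 0.25 ± 0.14 (adjusted p = 0.765). In GFP- cells Sdha (0.27 ± 0.14), Ndufc1 (-0.25 ± 0.13), Uqcrh (-0.25 ± 0.14), Cox6c (-0.19 ± 0.11) and Atp5k (-0.21 ± 0.13) had the smallest p-values, each with adjusted p = 1. For the change of the sort with odor they were Sdha (-0.36 ± 0.20), Cox6a2 (0.35 ± 0.20), Atp5k, Ndufaf1 (-0.39 ± 0.25) and Cox4i2 (0.29 ± 0.20), each with adjusted p = 0.999.

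**Figure D5:**
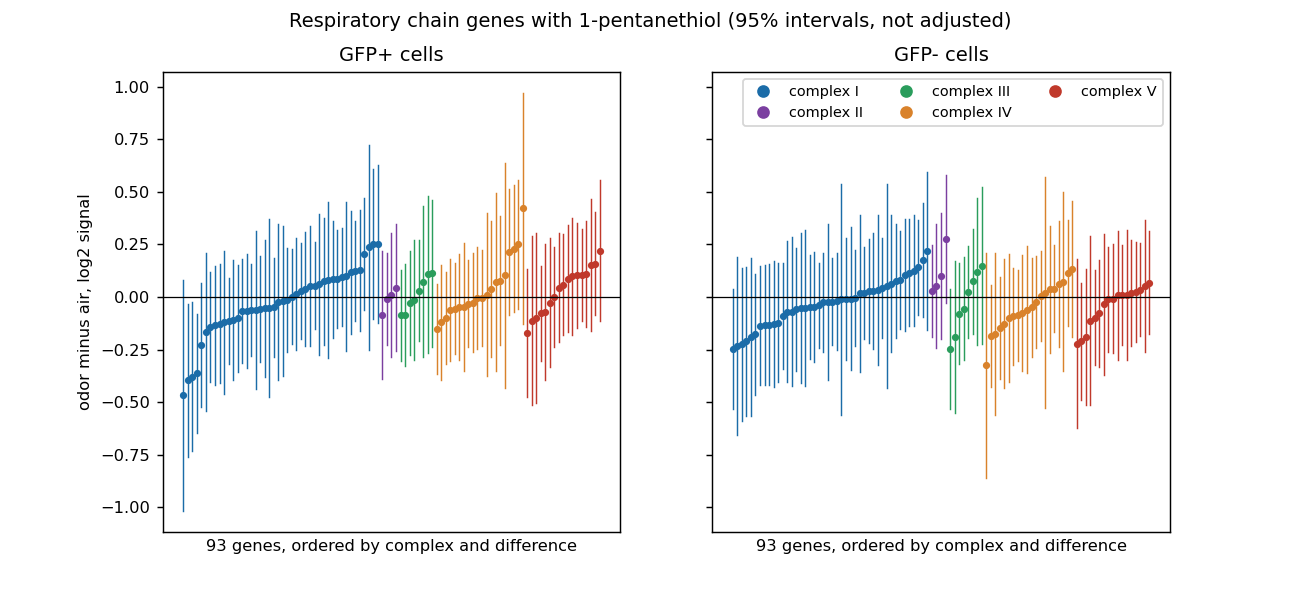
Odor minus vehicle (air) difference (log2 signal) of the 93 genes in GFP+ (left) and GFP- cells (right), with unadjusted 95% intervals, ordered by complex and by size. Points scatter around medians of -0.00 and -0.02, and none passed the adjusted threshold.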

How the data were processed

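The values are log2 signals of probe sets deposited by the authors for 16 Clariom S arrays, made with Affymetrix Expression Console per the submitters' processing notes; no source used here gives its version or its summarization and normalization method. No further scaling or filter was applied. Of 28846 features, 5222 negative control and the other control entries were used for checks alone, and 22206 probe sets were tested. A model of 4 group means over the 16 arrays was fitted with limma 3.58.1 (R 4.3.3), without a block; tests were two-sided, p-values were adjusted by Benjamini-Hochberg, and the procedure was tested on simulated data. The number of arrays limits the precision. Biological replicates are separate pools of 3 mice. GFP+ and GFP- arrays of a pool come from the same mice and pair by origin (r of their deviations 0.0119 to 0.224 over all probe sets), so the fit with each pool as a block stands beside results it changes. Between odor and vehicle arrays of equal number, r was 0.0311 to 0.256 (GFP+) and 0.186 to 0.29 (GFP-), and the number as a block was an alternative.

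Named were, per comparison, genes past the threshold without overlap between the groups (up to 15 in each direction), or else the 5 with the smallest p, and always core enzymes and tissue-restricted isoforms; the other genes past the threshold in the mean of both sorts, and Ndufaf3, Ndufaf6, Ndufaf8, Ndufa8, Cox6b1, Cox7a2l and further core subunits, were added after their values were seen. From each list of other pathway genes up to 3 past the threshold were named. The members and lists were chosen with earlier results of these data known. Array medians, quantiles or receptor medians set equal, dim probe sets left out, trend and robust estimation, array weights, fits to the compared groups alone, blocks and left-out pools were tried as alternatives, and 2 more were added after the data were seen.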

Additional observations from a re-analysis of the deposited data

Results flagged for a closer look

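In groups of 4 arrays, 13 of 208 groups checked held a value whose gap to the nearest of the other values was large for the group's range, by a rule that chance meets in about 1 in 20 groups. In GFP- cells of the vehicle pools these were Cox7b2 in pool 3 (6.21, the highest, next 5.30) and Uqcrfs1 in pool 3 (12.82, the lowest, next 13.03). In GFP+ cells of the vehicle pools Ndufb4b (15.89, next 15.47) and Ndufa4 (15.97, next 15.78) were highest and Cox6a1 (16.19, next 16.40) was lowest in pool 2, whose array also had the bright negative control entries, and Cox6a2 was lowest in pool 1 (6.59, next 6.92).

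In GFP- cells of the odor pools Cox6a2 was highest in pool 2 (7.40, next 6.94) and Uqcrc1 highest in pool 1 (13.79, next 13.53), while Sdha was lowest in pool 1 (11.72, next 12.07) and Uqcrh lowest in pool 3 (14.50, next 15.11). In GFP+ cells of the odor pools Ndufaf8 (7.86, next 8.17) and Uqcr11 (7.68, next 8.26) were lowest in pool 3 and Uqcrc1 was lowest in pool 2 (13.37, next 13.65).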

How the results depend on the processing

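Counts of genes higher in GFP+ cells, 10 in the vehicle pools, 10 in the odor pools and 26 in the mean of both sorts, became 80, 81 and 86 with array medians set equal, 17, 19 and 40 with quantile normalization, and 0, 1 and 0 with receptor medians set equal, as the median of all probe sets moved from 0.14 (mean of both sorts) to 0.47, 0.14 and -0.01. Fitted to the compared groups alone the vehicle sort gave 4. With each pool as a replicate block the paired fits gave 4 in the vehicle pools, 4 in the odor pools and 23 in the mean. Leaving out 1 replicate at a time gave 3 to 9, 2 to 5 and 16 to 33. The count of genes lower, 1 in each, became 2, 1 and 2 with receptor medians set equal (Atp5g2 joined Cox6b2), and 0 in all 3 when probe sets with a mean below the median of the negative controls were left out, which removes Cox6b2 itself. In the odor pools that count was 0 to 1 with 1 replicate left out and 0 without both pools numbered 2. Comparisons of odor with vehicle kept a count of 0 in every alternative. No called gene changed its sign. The normalization behind the deposited values is unknown here, and differences near 0.2 are of the size of the shifts between scalings.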
